A study of Mus musculus with 58 samples.

Results

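Cells that had lost the SPOC arm and the Polycomb arm of Xist-mediated silencing by 2 different routes were compared after 6 days of Xist induction under neural precursor (NPC) differentiation. The libraries were chosen by their titles and make up 4 of the 58 chromatin-associated RNA sequencing (ChrRNA-seq) libraries of the series. All came from female mouse embryonic stem cells (mESCs) of a 129S x Cast cross, in which the Xist promoter on the 129S (Dom) X chromosome was replaced with a TetOn promoter, and all received doxycycline at 1 ug/mL for 6 days. In the first route, DelPID_SPOC, the PID region (B/C repeat) of Xist was deleted and no dTAG-13 was given. In the second route, PCGF35_SPOC_dTAG, the PCGF3 and PCGF5 proteins carry an FKBP12 degron tag and were degraded with dTAG-13, which the labels give as 100 uM from 12 hours before doxycycline. The SPOC domain of Spen is mutated in both. For DelPID_SPOC the mutation is named by the titles and the study's methods and not by the engineering label. Each library was made from 1 engineered clone, A8 and G3 for DelPID_SPOC and F10 and F6 for PCGF35_SPOC_dTAG, so a difference between routes also compares independently derived lines. The study describes a DelPID_SPOC clone that it calls G as tetraploid. It lists only A8 and G3 for this line, so G appears to be G3, though the labels do not say so. It also describes F6 as subcloned before sequencing because some of its cells had lost an X. dTAG-13 itself was given in 1 route alone, so its effect and that of the line cannot be told apart in a comparison of routes. The same 4 clones were also sequenced as mESCs before induction (day 0) and after 1 day, and in NPC culture on day 3.

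Xist is the long non-coding RNA that coats and silences an X chromosome in cis. It binds SPEN, whose SPOC domain recruits the NCoR/SMRT corepressors and histone deacetylase HDAC3. Through its B/C repeat Xist also binds hnRNPK, which brings in Polycomb complexes that contain PCGF3 or PCGF5 and that ubiquitinate histone H2A. Deletion of the repeat removes this recruitment on the inactivating X alone, whereas degradation of PCGF3 and PCGF5 removes the complexes throughout the genome.

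Silencing was read as the Dom share of a gene, that is the fragments of the Dom allele as a part of all its allelic fragments. The value is near 0.5 when both alleles are expressed equally and near 0 when the Dom allele is silent. The X-linked genes of the deposited allelic table were used, all of them located before Xist, and every one had a share in each of the 4 libraries. The 4 libraries held 13.3 to 18.97 M fragments, 46.4% to 47.7% of which carried an allele, and a median of 148 to 292 allelic fragments per gene. Expression is given as CPM, the counts of a gene per M counts of its library (kCPM and M with the usual prefixes). The clones of a route were not repeats of one library, since the chi-square of their counts divided by its degrees of freedom was 67.2 in DelPID_SPOC and 130.1 in PCGF35_SPOC_dTAG, where counting error alone gives about 1. The labels do not say whether the cultures of the routes were run together.

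Clone F10 stood apart from the other 3 libraries at day 6, and each result that rests on it is given with and without it. The X-linked counts other than Xist summed to 53110 CPM in A8, 45648 in G3 and 48727 in F6, against 31315 in F10. F10 also differed from the other 3 in marker genes of other cell types and of pluripotency. The 14 naive pluripotency genes summed to 1382 CPM in A8, 1762 in G3, 1455 in F6 and 554 in F10, and F10 was the lowest library for 13 of them. Over all 15119 genes tested F10 was the lowest for 4564. The 14 mesoderm, endoderm and trophoblast genes summed to 17.7, 18.2 and 22.9 CPM in A8, G3 and F6 and to 111 CPM in F10, against 119 and 100.3 CPM in the WT NPC cultures of day 6. The 11 fibroblast genes summed to 8.96, 25.3 and 15.1 CPM in these clones and to 163 CPM in F10, where Col1a2 (a collagen chain) alone had 106 CPM against 2.79 to 5.88 CPM. The WT cultures had 19.6 and 34.0 CPM of the fibroblast genes. F10 was the highest library for 10 of the 14 mesoderm, endoderm and trophoblast genes and the lowest for 3. For the 11 fibroblast genes F10 was the highest for 7 and the lowest for 2. Over all 15119 genes tested F10 was the highest for 5829. Of the fibroblast genes, 1, 1 and 2 had no count in A8, G3 and F6 and none was at 0 in F10. Cdx2, a trophoblast factor, was at 0 in A8, G3 and F6. The F10 culture of the same day that received doxycycline without dTAG-13, PCGF35_SPOC_ctrl, also had low naive genes (639 CPM) and high fibroblast genes (106 CPM). Its mesoderm, endoderm and trophoblast genes summed to 315 CPM, and its X-linked counts other than Xist to 31102 CPM. In the WT NPC cultures of day 6 these X-linked counts summed to 31889.5 and 30584.3 CPM. The part of these differences in the results below was not tested.

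The neural markers did not separate the 4 NPC libraries clearly from the stem cells they came from. The 22 neural progenitor genes summed to 996 CPM in A8, 1154 in G3, 1483 in F10 and 858 in F6, and at day 0 the same clones had 767, 1337, 804 and 584 CPM. In the WT NPC cultures of day 6 they summed to 796 and 1097 CPM. Sox1 and Sox2, neural and stem cell factors, were listed at 0 in every library of the series and could not be used.

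Neither route left the Dom X silenced at day 6. The median Dom share over genes was 0.496 in A8, 0.508 in G3, 0.579 in F10 and 0.500 in F6. A8, G3 and F6 thus lay close to even expression, and F10 lay above 0.5. The quartiles of the genes were 0.440 and 0.541 in A8, 0.460 and 0.560 in G3, 0.504 and 0.630 in F10 and 0.451 and 0.549 in F6. In the other day 6 libraries the median was 0.083 and 0.089 in WT, 0.065 and 0.083 in PCGF35 (the tagged PCGF proteins with intact Spen) without dTAG-13, 0.331 and 0.338 in SPOC (the Spen mutation alone), 0.250 and 0.330 in DelPID (the Xist deletion alone), 0.225 and 0.228 in PCGF35 with dTAG-13 and 0.328 and 0.402 in PCGF35_SPOC without dTAG-13. Every library of the combined loss was above all of these.

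**Figure D1:**
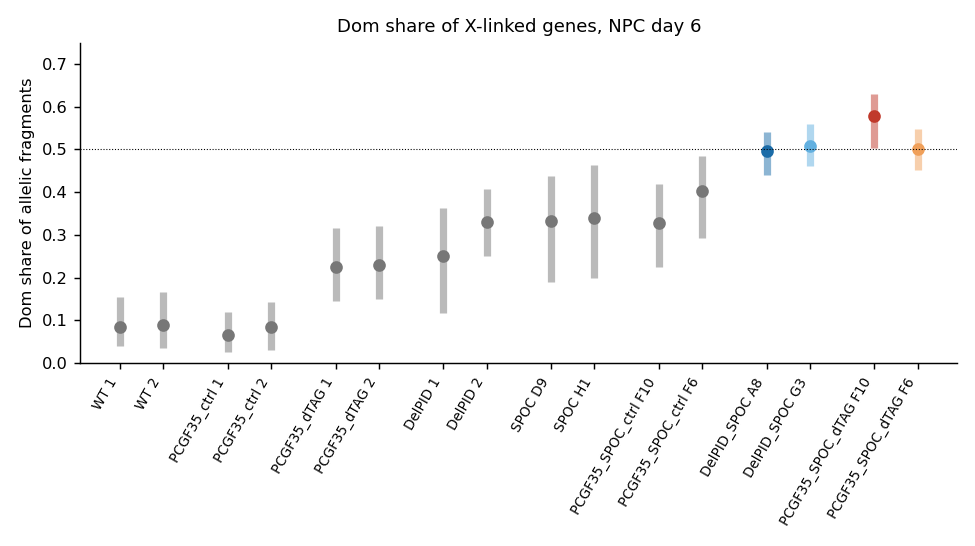
Dom share of the X-linked genes in the 16 libraries of NPC day 6. Points are medians and bars run from the first to the third quartile over genes, with the libraries of the combined loss in colour and the dotted line at 0.5. A8, G3 and F6 sit at 0.496 to 0.508 and F10 at 0.579, and the next library below is at 0.402.

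The routes did not differ beyond the spread between clones. The mean of the library medians was 0.502 ± 0.00799 (SD, n = 2) in DelPID_SPOC and 0.539 ± 0.0556 (SD, n = 2) in PCGF35_SPOC_dTAG, a difference of -0.0373 (exact permutation test, two-sided p = 0.667, where 2 against 2 cannot go below 0.333). Such p-values measure the spread between clones, each cultured once per day of the series. The pairs of clones from different routes differed by -0.0823 to 0.00769. Without F10 the difference was 0.00204, and without F6 it was -0.0766.

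Gene by gene, A8 and F6 were no further apart than clones of the same route. Over the 141 genes with at least 100 allelic fragments in each library, the median absolute difference in Dom share was 0.0226 between A8 and F6 and 0.0285 between G3 and F6, both from different routes. It was 0.0301 between A8 and G3, which share a route. Counting error alone gives a median of 0.0190 to 0.0228 for these pairs. F10 differed from A8 by 0.0990, from G3 by 0.0820 and from F6, its partner in the same route, by 0.0908.

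No X-linked gene passed the test of a route difference in Dom share (0% called, edgeR quasi-likelihood test on Dom and Cast counts, smallest adjusted p = 0.111), and 9 had an unadjusted p under 0.05. The share was lower in DelPID_SPOC for 188 genes and higher for 58, and the median difference in log2 odds (Dom to Cast) was -0.22 with F10 and 0.03 without it. The median standard error of 0.38 sets the precision. For 105 of the genes the 95% interval of the difference lay within 1 log2 unit of 0, and for the others it reached beyond a 2-fold difference in odds. limma on the shares called 1 gene, Mamld1, which was named after its values were seen. Its Dom share was 0.588 in A8, 0.742 in G3, 0.237 in F10 and 0.222 in F6, on 9 to 38 allelic fragments (limma adjusted p = 0.0448, edgeR adjusted p = 0.111). At day 0 no gene passed the test either (0% called, edgeR, smallest adjusted p = 0.996, with 7 genes at an unadjusted p under 0.05, and 0 genes by limma).

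Before induction the clones began slightly above even expression, and the medians were 0.531 in A8, 0.519 in G3, 0.514 in F10 and 0.523 in F6. On day 1 the 4 clones were between 0.508 and 0.514. On day 3 the median was 0.509 in A8, 0.527 in G3, 0.557 in F10 and 0.503 in F6, so that F10 was already the highest. From day 0 to day 6 the median change over genes was -0.0309 in A8, -0.00696 in G3, 0.0542 in F10 and -0.0211 in F6. The mean change was -0.0189 in DelPID_SPOC and 0.0166 in PCGF35_SPOC_dTAG (difference -0.0355, exact permutation test, two-sided p = 0.667). Without F10 at day 6 the difference was 0.00212. In A8 the share fell for 171 genes, in G3 for 138 and in F6 for 158, whereas in F10 it fell for 65 and rose for 178. The change of single genes passed the test between the routes for no gene (0% called, edgeR, smallest adjusted p = 0.784, 6 genes at an unadjusted p under 0.05, and 0 by limma).

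The 2 alleles moved differently in F10. The Cast fragments of these genes summed to 5366 CPM in A8, 5724 in G3, 4826 in F10 and 5492 in F6 at day 0, and to 5166, 4440, 2646 and 4977 CPM at day 6. The ratio of day 6 to day 0 was 0.963 in A8, 0.776 in G3, 0.548 in F10 and 0.906 in F6. For the Dom allele, which carries the induced Xist, the ratio was 0.866 in A8, 0.761 in G3, 0.742 in F10 and 0.846 in F6. The higher Dom share of F10 therefore came with a lower Cast level, while its Dom level (3817 CPM) was also the lowest of the day 6 libraries (4627 to 5064 CPM in the others). F10 had the lowest Cast CPM of the 4 libraries for 188 of the genes. Fewer cells with a Cast X and less RNA per Cast X cannot be told apart in bulk libraries. The study's text raises spontaneous elimination of an X chromosome in differentiating cells whose X chromosomes are both active. Its supplement interprets an upward allelic skew in NPC samples of a PCGF35_SPOC clone as selection for cells without the Cast X. It calls that clone G3, whereas the study lists F6 and F10 for this line. Of these, F10 had the higher Dom share at day 6. Loss of the Cast X was not tested here. F10 cells of day 6 without dTAG-13 had 4037 Cast CPM and 2201 Dom CPM.

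**Figure D2:**
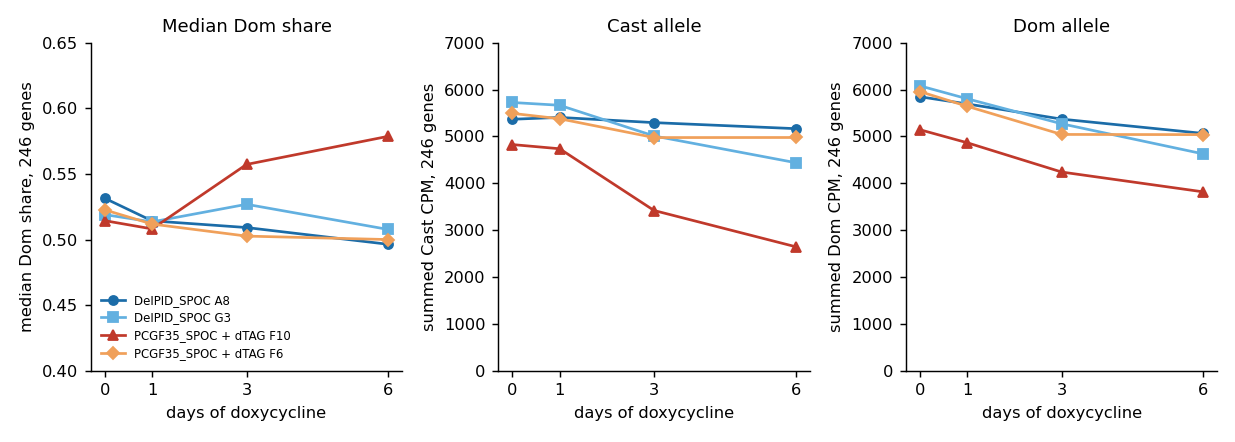
Median Dom share and summed allele CPM of the X-linked genes in the 4 clones over days of doxycycline, with mESCs on days 0 and 1 and NPC cultures on days 3 and 6. Each point is 1 library; F10 leaves the other clones on day 3, with a higher Dom share and a Cast sum that reaches 2646 CPM on day 6.

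Xist was induced in every clone. It had 50.4 to 83.5 CPM at day 0 and 2830 to 5347 CPM on day 1. At day 6 it had 6466 CPM in A8, 6973 in G3, 10295 in F10 and 5344 in F6, and F10 was again the extreme library. The routes overlapped. The mean difference in log2 CPM was -0.14 (exact permutation test, two-sided p = 1.00), and without F10 it was 0.33. WT NPC libraries of the same day had 7744 and 9007 CPM. The PID deletion removes part of the Xist RNA in DelPID_SPOC, so its counts are over a shorter RNA than in PCGF35_SPOC_dTAG and WT. A small difference in CPM therefore does not compare the Xist levels of the routes. The gene counts do not show the PID deletion, the point mutation or the loss of PCGF3 and PCGF5 protein, so they check none of the labels.

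Spen and the degron-tagged genes were transcribed in all clones. Spen had 848 CPM in A8, 574 in G3, 199 in F10 and 630 in F6, against 267 to 332 CPM in the same clones at day 0. It was thus above the day 0 range in 3 clones and below it in F10. Pcgf3 had 73.5, 91.4, 92.8 and 73.6 CPM in A8, G3, F10 and F6. Pcgf5 had 29.8 CPM in A8, 41.4 in G3, 97.6 in F10 and 32.6 in F6. None of the 4 engineered genes passed the test between routes (edgeR adjusted p = 0.837 for Xist, 0.340 for Spen, 0.891 for Pcgf3 and 0.407 for Pcgf5).

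The average change of the routes from day 0 to day 6 passed the test for a small number of genes, of which 5 fell and 0 rose (2.03% called, edgeR quasi-likelihood test). Leaving out 1 library at a time gave 2 (without A8 at day 6) to 11 calls, and without F6 at day 6 there were 7 that rose and 4 that fell. Within each route the same fit called 1 gene (0.407%), 4930519F16Rik in DelPID_SPOC and Eda in PCGF35_SPOC_dTAG. It called 138 genes (56.1%, of which 137 fell) in PCGF35_SPOC without dTAG-13, a comparison added after seeing the data, which has the same clones F10 and F6 with PCGF3 and PCGF5 not degraded. Of the 5, 3 met the rule for named genes, with a fall in every clone, and the other 2, 4930519F16Rik and Nhsl2, were added after their values were seen.

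Eda, which encodes the ligand ectodysplasin A, gave the most precise of these changes. It lies at mm10 chrX:99975605-100400760 on the plus strand, 3.48 Mb before Xist. Its Dom share at day 0 was 0.475 in A8, 0.476 in G3, 0.468 in F10 and 0.494 in F6. At day 6 it was 0.363, 0.373, 0.368 and 0.344. All 4 clones fell into a narrow range, F10 included, although F10 rose over most other genes. The 95% Wilson intervals at day 6 ran from 0.327 at the lowest to 0.399 at the highest, on 951 to 2886 allelic fragments, and cover counting error only. The mean change in log2 odds was -0.69 (SE 0.13, adjusted p = 4.11e-04), and the call held in all 12 alternative fits. Eda fell in total too, from 716, 1146, 734 and 840 CPM to 350, 378, 128 and 465 CPM. In the other NPC day 6 libraries the Dom share of Eda was 0.0158 and 0.0179 in WT, 0.0208 and 0.0385 in SPOC, 0.118 and 0.165 in DelPID, 0.0876 and 0.0906 in PCGF35 with dTAG-13, and 0.113 and 0.121 in PCGF35_SPOC without it. The combined loss thus left Eda with a higher share than in any of these, but below its day 0 share.

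4930519F16Rik, a non-coding transcript 0.228 Mb before Xist (chrX:103232280-103256606, minus strand), had a Dom share of 0.369 in A8, 0.327 in G3, 0.333 in F10 and 0.333 in F6 at day 0. At day 6 it had 0.178, 0.184, 0.378 and 0.211, so it fell in A8, G3 and F6 and not in F10. The mean change in log2 odds was -0.96 (SE 0.19, adjusted p = 8.73e-04). F10 had 10.4 CPM of this transcript at day 6 and 45 allelic fragments, against 88.5 to 146 CPM in the other clones. Without F6 at day 6 the adjusted p was 0.285.

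Nhsl2, 1.61 Mb before Xist (chrX:101849384-102092055, plus strand), went from 0.533 to 0.366 in A8, from 0.495 to 0.332 in G3 and from 0.524 to 0.341 in F6, and from 0.529 to 0.549 in F10. The mean change was -0.72 in log2 odds (SE 0.19, adjusted p = 0.0250), and with clone F10 left out on both days the adjusted p was 0.00102. Again F10 was the only clone that did not fall.

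The remaining 2 genes rest on few fragments. Sytl5, a synaptotagmin-like protein gene at chrX:9885620-9998864 and 93.6 Mb before Xist, went from 0.346 to 0.143 in A8, from 0.364 to 0.250 in G3, from 0.513 to 0.211 in F10 and from 0.446 to 0.304 in F6, on 32 to 115 fragments (mean change -1.43 in log2 odds, SE 0.31, adjusted p = 0.00242). Heph, which encodes the iron oxidase hephaestin at chrX:96455435-96574484, went from 0.594 to 0.287 in A8, from 0.456 to 0.431 in G3, from 0.417 to 0.220 in F10 and from 0.417 to 0.239 in F6, on 32 to 87 fragments (mean change -1.10, SE 0.31, adjusted p = 0.0478). With clone F10 left out on both days their adjusted p was 0.198 and 0.226. With the clone as a block over the 8 libraries of days 0 and 6, Heph had an adjusted p of 0.0684 (edgeR) and the other 4 genes were called, as was Gm6938, a predicted gene (log2 odds -0.99, SE 0.29, adjusted p = 0.0324).

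**Figure D3:**
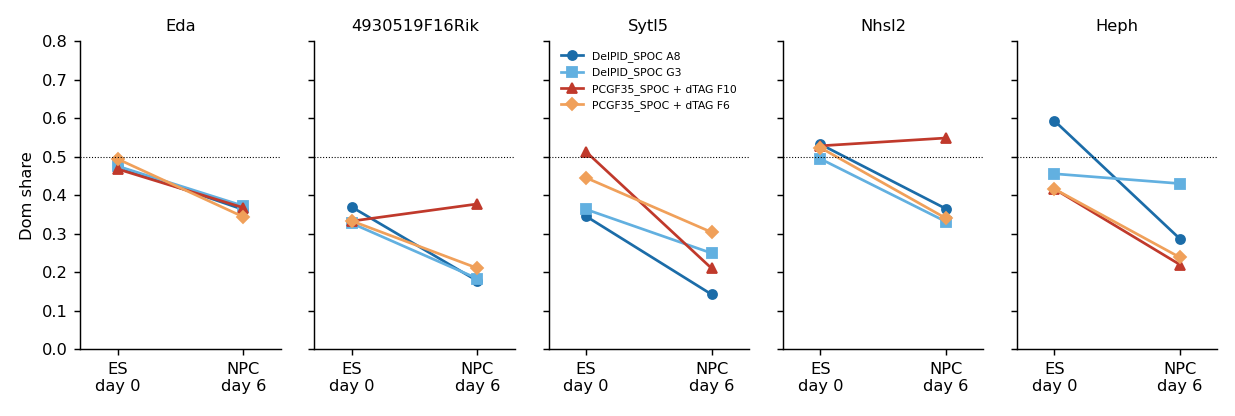
Dom share of the 5 genes called for a change from ES day 0 to NPC day 6 over both routes, with 1 line per clone and the dotted line at 0.5. Eda falls to 0.344 to 0.373 in all 4 clones; 4930519F16Rik and Nhsl2 fall in A8, G3 and F6 and not in F10.

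Along the chromosome the changes were small in A8, G3 and F6. In the 6 bins of 10 Mb with at least 20 genes, the median change of Dom share from day 0 ran from -0.0673 to -0.00682 in A8, from -0.0187 to -0.00299 in G3 and from -0.0625 to 0.000898 in F6. In F10 it ran from -0.0209 to 0.116, with the highest value 20 to 30 Mb before Xist (44 genes) and the lowest 80 to 90 Mb before it (25 genes). The bin next to Xist, with 51 genes, changed by -0.0446 in A8, -0.00679 in G3, 0.0533 in F10 and -0.0204 in F6. It was not the most changed bin in any clone. Of the called genes, Sytl5 is the one that lies outside this bin.

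**Figure D4:**
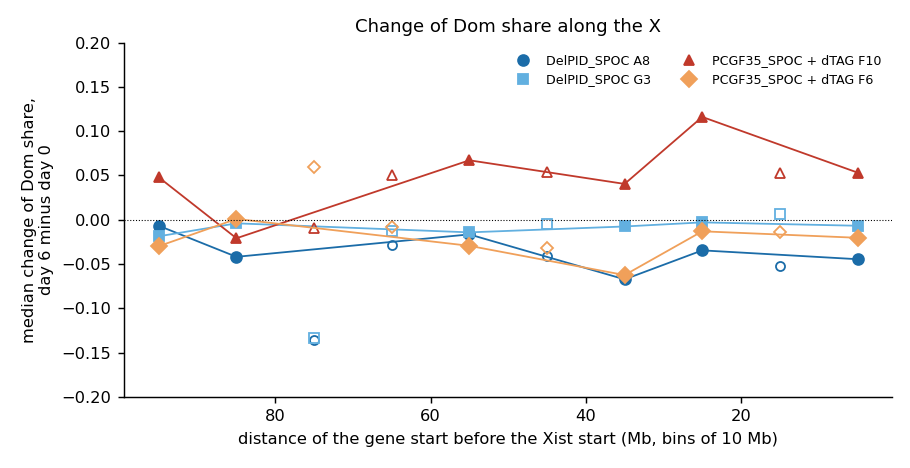
Median change of Dom share from ES day 0 to NPC day 6 in bins of 10 Mb along the X, by the distance of the gene start before the Xist start. Filled points are bins of at least 20 genes and open points are bins of 1 to 16 genes; A8, G3 and F6 stay close to 0 and F10 is above 0 in 5 of the 6 larger bins.

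Total X-linked expression followed the same pattern as the allelic counts. The 555 X-linked genes tested, Xist excluded, had a median log2 difference of 0.37 in favour of DelPID_SPOC, against -0.02 over all 15119 genes, and of 0.10 without F10. At day 0 the median was 0.11. No X-linked gene was called (0 of 555). Genes before Xist summed to 30905 CPM in A8, 27230 in G3, 19729 in F10 and 29294 in F6. Genes after Xist, which are not in the allelic table, summed to 22175 CPM in A8, 18381 in G3, 11567 in F10 and 19404 in F6. F10 was thus the lowest on both sides of Xist.

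Between the routes, 31 of 15119 genes differed in total expression at day 6 (0.205% called, edgeR quasi-likelihood test, adjusted p under 0.05). Of these, 25 were higher in DelPID_SPOC (0.165%) and 6 lower (0.0397%). Most lay on 3 chromosomes. Chromosome 18 held 11 of the calls, all higher in DelPID_SPOC, chromosome 11 held 9, of which 8 were higher, and chromosome 8 held 4, all lower. Without F10 no gene was called (0%, edgeR, with 1432 genes at an unadjusted p under 0.05), and without F6 1901 genes were (12.2%). DESeq2 called 663 genes (4.39%) on the same libraries. For 30 of the 31 the difference had the same sign at day 0, where no gene passed the test (0%, edgeR, 1609 genes at an unadjusted p under 0.05). The exception was Rpl23a, a ribosomal protein gene that was named after its values were seen. It has many near-identical copies, so its counts are uncertain. It differed by 1.34 at day 6 and by -0.08 at day 0 on the log2 scale. The share of all genes tested with the same sign on both days was not counted, and the same sign does not mean a similar size. Acsl6 differed by -1.76 at day 6 and -0.17 at day 0, and Ddx60 by -2.46 and -0.33. In contrast, Ss18 differed by 0.99 and 0.96, and Syne3 by -1.37 and -1.33.

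The lines carried different allele balances on these chromosomes, which had no part in the engineering. On chromosome 11 the median Dom share at day 6 was 0.351 in A8, 0.359 in G3, 0.684 in F10 and 0.687 in F6, so the routes were skewed to opposite alleles. On chromosome 18 it was 0.710, 0.685, 0.528 and 0.531, a skew of DelPID_SPOC alone. On chromosome 8 it was 0.346 in A8, 0.500 in G3, 0.350 in F10 and 0.348 in F6, so that G3 was the clone without the skew. On chromosome 12 it was 0.355 to 0.366 in all 4. The other 15 autosomes had medians of 0.483 to 0.539. All skews were present at day 0, with 0.354, 0.355, 0.688 and 0.685 on chromosome 11.

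The median expression difference between the routes departed from 0 on chromosomes 18 and 8, and hardly on chromosome 11. The median log2 difference between routes was 0.49 on chromosome 18 (390 genes) at day 6 and 0.62 at day 0, and on chromosome 8 (812 genes) it was -0.26 and -0.28. The counts of chromosome 8 summed to 52.0 kCPM in A8, 37.2 in G3, 56.2 in F10 and 53.6 in F6, so G3 alone was low. Those of chromosome 18 summed to 39.0 and 39.1 kCPM in A8 and G3, against 29.9 and 27.8 in F10 and F6. On chromosome 11 (1214 genes) the median was -0.02, and its counts summed to 91.9 to 94.6 kCPM in the 4 clones. The medians of the other 15 autosomes lay between -0.07 and 0.08. The copy number of these chromosomes was not measured, and line and route cannot be told apart there. When chromosomes 8, 11, 12 and 18 were left out of the fit, 0 of 12159 genes were called (edgeR, 2234 genes at an unadjusted p under 0.05).

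**Figure D5:**
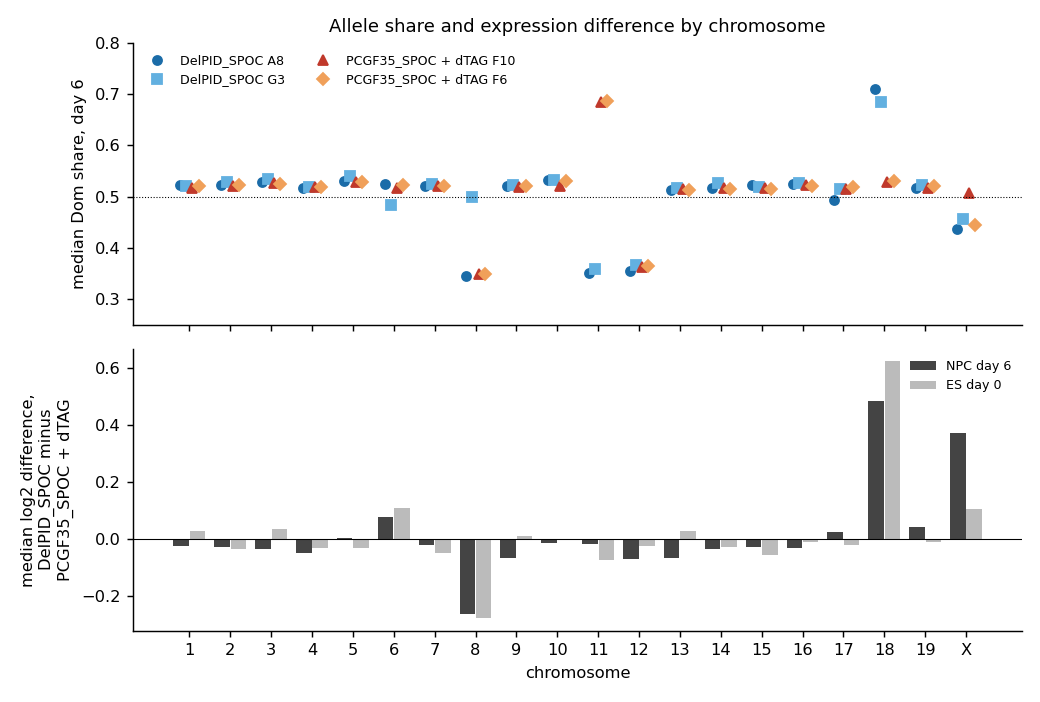
Upper panel, median Dom share of each chromosome at NPC day 6 in the 4 clones, over genes with at least 30 allelic fragments in each. Lower panel, median log2 difference in expression between the routes at NPC day 6 and ES day 0; chromosomes 8 and 18 depart from 0 on both days, by -0.26 and 0.49 at day 6.

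Ncor1, the corepressor that the SPOC domain binds, was among the genes of chromosome 11 that were higher in DelPID_SPOC. It had 1731 CPM in A8, 1529 in G3, 827 in F10 and 928 in F6, and the routes did not overlap, as in all 31 called genes. The difference of 0.96 on the log2 scale (SE 0.16, adjusted p = 0.0458) was already 0.88 at day 0. In DelPID_SPOC its fragments came mainly from the Cast allele, with 464 CPM of Cast against 151 of Dom in A8 and 411 against 138 in G3. In PCGF35_SPOC_dTAG they came mainly from Dom, with 93.6 CPM of Cast against 213 of Dom in F10 and 98.9 against 254 in F6. Ncor1 was the only one of the 18 SPEN corepressor and Xist-bound protein genes to pass the test (0.205% over all genes). The list had a median log2 difference of 0.26.

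Among the genes with the largest differences, 4 lay on chromosome 11, and of these Trim11 had the allele pattern of Ncor1. Trim11, a tripartite-motif ubiquitin ligase gene, had 313 and 346 CPM in A8 and G3 and 124 and 110 CPM in F10 and F6 (log2 difference 1.56, SE 0.15, adjusted p = 0.00487), with 138 and 148 CPM of its Cast allele against 23.6 and 20.7 and a Dom share of 0.177 and 0.184 against 0.659 and 0.651. Slc47a2, a cation exporter gene, had 80.0 and 73.7 CPM against 11.2 and 22.9 (2.24, SE 0.31, adjusted p = 0.0309), and its Cast allele had 55.0 and 52.0 CPM against 6.81 and 12.0. Its fragments were mainly Cast in all 4 clones. Zfp750, a zinc finger gene, had 11.8 and 18.4 CPM against 4.32 and 5.57 (1.67, SE 0.28, adjusted p = 0.0458), on 23 to 84 allelic fragments with a Dom share of 0.268 and 0.333 against 0.478 and 0.708. Acsl6, which encodes an acyl-CoA synthetase, went the other way, with 6.59 and 8.11 CPM against 30.5 and 21.7 (-1.76, SE 0.25, adjusted p = 0.0359) and mainly Dom fragments in all 4 clones. The routes do not overlap in any of these because the rule for named genes required it.

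The other genes that were lower in DelPID_SPOC lay on chromosomes 8 and 12. Ddx60, an antiviral helicase gene on chromosome 8, had 19.4 CPM in A8, 13.05 in G3, 118 in F10 and 71.3 in F6 (-2.46, SE 0.42, adjusted p = 0.0458). Ntpcr and Lpcat2, also on chromosome 8, had 4.19 to 5.48 and 10.5 to 12.0 CPM in DelPID_SPOC and 14.6 to 15.6 and 30.8 to 36.3 CPM in PCGF35_SPOC_dTAG. Syne3, a nuclear envelope gene on chromosome 12, had 7.75 and 6.22 CPM against 18.7 and 19.3, and at day 0 it had 7.93 and 7.53 against 18.8 and 23.1. For these chromosome 8 genes A8 lay with G3, below F10 and F6, while its chromosome 8 allele share was that of F10 and F6. At day 0 Ddx60 had 62.2, 25.7, 54.7 and 63.5 CPM in A8, G3, F10 and F6, so A8 was not low there.

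Higher genes on chromosomes without a skew were Pax6 and Hs3st4. Pax6, a neural transcription factor on chromosome 2, had 10.5 CPM in A8, 7.91 in G3, 1.52 in F10 and 1.05 in F6 (log2 difference 2.90, SE 0.49, adjusted p = 0.0458). It was the only called member of the 10 neural progenitor genes tested (0.205% called over all genes), whose median difference was 0.01. Hs3st4, a heparan sulfate sulfotransferase gene on chromosome 7, had 366 and 308 CPM against 93.0 and 144 (1.57, SE 0.24, adjusted p = 0.0436). At day 0 Pax6 had 4.46, 0.767, 2.36 and 0.951 CPM in A8, G3, F10 and F6, and Hs3st4 had 73.6, 219, 91.5 and 77.5 CPM. The change from day 0 differed between the routes by 2.23 (SE 0.94) for Pax6 and 0.66 (SE 0.54) for Hs3st4 on the log2 scale. Neither passed the test of that difference (edgeR adjusted p = 0.591 and 0.711), where 0.591 was the smallest of any gene. This does not show that the differences were present at day 0.

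The lists for the Polycomb system gave no call between the routes. None of the 26 PRC1 subunit genes tested passed (median log2 difference 0.12), and none of 11 PRC2 subunit genes (0.20). Over all 15119 genes tested 0.205% were called, so no call in lists of this size is near that share. For each list with no call, the genes with the highest CPM are given, at most 2, in the order A8, G3, F10 and F6. Auts2, which encodes a subunit of PRC1 complexes with PCGF3 or PCGF5, had 948, 1085, 2070 and 1243 CPM, and Mga, which encodes a subunit of PCGF6 complexes, had 822, 690, 546 and 650 CPM. Jarid2, a PRC2 accessory subunit gene, spread widely within routes, with 2392, 1382, 1118 and 4182 CPM, and Suz12, a core subunit gene, had 771, 604, 603 and 827 CPM. Among genes that Polycomb is known to hold silent, the Hox genes were low in both routes. They were also low in the WT NPC cultures of day 6, with sums of 2.92 and 3.50 CPM. The 39 Hox genes summed to 3.59, 7.37, 1.95 and 4.44 CPM in A8, G3, F10 and F6, and 3 of them were abundant enough to test, with 0 called and none above 1.55 CPM among the most abundant, Hoxb9 and Hoxc13. Of the 50 bivalent lineage regulators 21 were tested and 0 called. The 50 summed to 283, 390, 212 and 253 CPM, against 274 and 270 CPM in the WT NPC cultures of day 6. Ebf1, a transcription factor gene, had 64.0, 90.0, 37.1 and 77.9 CPM. No difference was called in these lists, which is near the share over all genes and does not show that the levels were equal.

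The markers of cell state differed between F10 and the rest more than between routes. No naive pluripotency gene of 14 and no core or formative gene of 13 was called (0.205% over all genes). Their medians of 0.83 and 0.65 became 0.25 and 0.31 without F10. Esrrb had 356, 548, 191 and 495 CPM and Zfp42 433, 259, 83.3 and 336 CPM in A8, G3, F10 and F6, the lowest in F10. Dnmt3b, a DNA methyltransferase gene, had 258, 88.0, 123 and 232 CPM and L1td1 158, 123, 40.2 and 103 CPM. WT NPC cultures had naive sums of 853 and 992 CPM, which lie between F10 and the other 3 clones. The mesoderm, endoderm and trophoblast list had a median of -2.20 over 10 tested genes, and -0.18 without F10, and the fibroblast list went from -1.06 to 0.44, with 0 called in either. Krt8, an epithelial keratin gene, had 34.0 CPM in F10 against 1.28 to 4.21, and in F10 it had 23.2 CPM at day 0. Gata4, an endoderm factor, had 4.01, 5.68, 21.6 and 7.45 CPM, and Col1a1, a collagen chain, had 0.211, 0.946, 22.1 and 0.828 CPM.

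The X-linked dosage regulators, genes whose double dose has been tied to the state of female stem cells, were lowest in F10. They summed to 8474 CPM in A8, 6975 in G3, 4332 in F10 and 7352 in F6, and F10 was the lowest library for 18 of 20. Over all 15119 genes tested it was the lowest for 4564, and the X-linked counts as a whole were also lowest in F10. WT, with a silenced Dom X, had 4911 and 4208 CPM. None of the 20 was called (0.205% over all genes), and the median of 0.50 became 0.21 without F10. Huwe1 had 2116, 1871, 1013 and 1900 CPM and Atrx 1594, 977, 667 and 1166 CPM. In the X inactivation centre, 0 of 8 genes were called, Xist included, and Rlim, whose product activates Xist, had 760, 400, 307 and 453 CPM.

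Other lists had no called gene or 1, where 0.205% of all genes tested were called. Of the imprinted genes, 1 of 25 passed, Zrsr1 on chromosome 11, a splicing factor gene known as paternally expressed. It had 50.8 and 60.5 CPM in DelPID_SPOC and 21.2 and 28.6 CPM in PCGF35_SPOC_dTAG (1.22, SE 0.19, edgeR adjusted p = 0.0458). Its Dom share was 0.386, 0.395, 0.702 and 0.620 in A8, G3, F10 and F6. These shares rest on 94 to 184 allelic fragments, and both alleles were counted in every clone. ERK output (0 of 14, median 0.35) and the Notch pathway (0 of 13, median -0.12) had no call, and Rbpj, the Notch effector, had 1054, 818, 428 and 996 CPM and the receptor gene Notch2 144, 103, 361 and 129 CPM. Of the ERK feedback inhibitor genes, Spred2 had 287, 285, 247 and 412 CPM and Spred1 162, 161, 221 and 128 CPM. The 17 germline genes tested, a class that variant PRC1 complexes help to silence, had no call and a median of 0.18, and the meiotic cohesin genes Smc1b and Stag3 had 134, 121, 39.6 and 206 CPM and 43.5, 43.4, 42.4 and 101 CPM. The p53 targets (0 of 12, median 0.45) were led by Trp53inp1 with 424, 386, 374 and 227 CPM and Ccng1 with 402, 325, 274 and 140 CPM, both lowest in F6. The ATF4 targets (0 of 14, median -0.04) were led by Asns with 233, 370, 155 and 183 CPM and Psat1 with 122, 92.5, 119 and 111 CPM, both genes of amino acid synthesis. Across all tested genes the 95% interval of the route difference lay within 1 log2 unit of 0 for 7031 of 15119 (46.5%), and for the rest it reached beyond a 2-fold difference.

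The change of expression from day 0 to day 6 was also compared between the routes, and 0 of 15908 genes differed (0% called, edgeR, smallest adjusted p = 0.591, 1329 genes at an unadjusted p under 0.05). With clone F10 left out on both days the count was 0 as well, and 439 genes had an unadjusted p under 0.05.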

How the data were processed

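ChrRNA-seq was measured in 58 libraries. Per the study's methods and the submitters' notes, the authors removed ribosomal reads with bowtie2 (2.3.2), aligned pairs to N-masked mm10 with STAR (2.4.2a), split them by allele with SNPsplit and counted stranded fragments per gene with featureCounts. The deposited counts are raw and not pooled: all, Cast and Dom fragments of 22556 genes. The deposited allelic ratio of X-linked genes is a fraction that the authors computed from those counts. Recomputed for 4 libraries, it differed by at most 5e-16, and 54 other columns were not used. Fragments that overlap several genes may be uncounted.

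Clones, not treatments, are the replicates. Dom and Cast counts of each library were fitted with edgeR (4.0.16), with the library as a block and 1 Dom-to-Cast odds per group, over the 16 libraries of NPC day 6 or these and the 13 of ES day 0. Total counts were fitted with edgeR after filterByExpr and TMM. p-values were adjusted by Benjamini-Hochberg at 0.05 over all genes tested. limma (3.58.1), DESeq2 (1.42.0) and other samples, filters and scalings were alternatives, computed in R 4.3.3 and scipy 1.17.1. On simulated data, the expression fit recovered 25.0% of 2-fold and 67.0% of 4-fold changes over 14974 genes, and the allelic fit 40.0% of 2-fold odds changes over the X-linked genes. Clones pair days 0 and 6, as a clone is 1 cell line, and their deviations correlated by 0.324 in DelPID_SPOC and 0.232 in PCGF35_SPOC_dTAG over 13974 genes.

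The members and all gene lists were chosen with earlier results of these data known. Named genes were the called members of 19 lists or, with none called, the 2 with the highest CPM, the engineered genes, and at most 5 genes per direction (6 for a shared change) with the largest called difference, clones that do not overlap and at least 5 CPM or 30 allelic fragments. One gene that the rule names is not reported here.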

Additional observations from a re-analysis of the deposited data

How the results depend on the processing

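Most values that compare the routes rest on clone F10. Leaving out each library in turn moved the route difference in median Dom share between -0.0766 and 0.00204, that in its change from day 0 between -0.0731 and 0.00212, and that in log2 Xist CPM between -0.62 and 0.33, with the sign turned without F10 in all 3. Under the pooled share, genes with at least 50 fragments and log2 odds the first 2 kept their direction where they were tried, and so did TMM-scaled Xist.

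The count of genes with a route difference in Dom share was 4 in a fit of all 58 libraries, 1 in the 4 libraries alone, 1 with limma and 0 to 1 without a library. At ES day 0 it was 0 in every fit. For the difference in change it was 0 to 6 without a library, the 6 without F6 at day 6. For the shared change it was 2 to 11 without a library, with 11 without F6 (7 of which rose) and 2 without A8 at day 6, and 3 with clone F10 left out, a choice made after seeing the data. For total expression it was 9 with DESeq2 size factors (7 higher), 663 with DESeq2 (333 higher), 43 with no filter (29 higher), 929 with all 58 libraries (429 higher), 0 with the 4 libraries alone and 0 without chromosomes 8, 11, 12 and 18, the last also added after seeing the data. Without a library it was 0 to 1901, with 0 without F10, 1901 without F6, 1 without A8, 19 without G3 and 14 without the shallow DelPID library (2.29 M fragments). At ES day 0 it was 172 with all 58 libraries and 0 to 62 without a library, the 62 without A8. For the change of expression it was 0 to 94 without a library, the 94 without F6 at day 6. The cause of these shifts was not tested. Of the 182 refits of the 17 called genes named, 100 kept the call, 82 lost it and none turned.

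With the clone as a replicate block, the shared change gave 5 genes (5 without the block), the route difference in the change of Dom share 0 and that in the change of expression 0, with 657 genes at an unadjusted p under 0.05, so the block changed none of these counts, though Heph was replaced by Gm6938 among the 5. For the comparisons within a day, no paired analysis was possible because the clones of the routes are different cell lines. Intervals cover counting error only, and groups of 2 clones limit every comparison.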
